A study of Mus musculus with 2669 samples.

Results

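The genes described here are 7 homeobox genes that pattern the ventral telencephalon: Pax6, Gsx1, Gsx2, Nkx6-2, Otx1, Otx2 and Six3. They were chosen by symbol, as the files write it (PAX6, GSX1, GSX2, NKX6-2, OTX1, OTX2 and SIX3), and are 7 of the 37310 genes in the count table, across all cells. The working name of the set also speaks of forkhead factors, but no forkhead gene is among the members, so the family is described below only as a reference list. The cells were taken from embryos of timed pregnant CD1 mice, aged E12.5 or E14.5 and dissected as dorsal medial ganglionic eminence (dMGE), ventral medial ganglionic eminence (vMGE) and caudal ganglionic eminence (CGE). No allele or agent separates the groups, which by the labels differ in region and age. Polyadenylated RNA of single cells was captured on Fluidigm C1 chips for small cells and converted with Smart-seq v4, a full-length chemistry, so that reads per gene were counted rather than molecules. After a filter, 2650 of 2669 cells on 37 chips were analysed: 6 chips and 444 cells of dMGE, 7 chips and 482 cells of vMGE and 6 chips and 467 cells of CGE at E12.5, and 8 chips and 502 cells of dMGE, 5 chips and 368 cells of vMGE and 5 chips and 387 cells of CGE at E14.5. The labels name chips but neither animals nor litters, so the chip was the replicate, and every p-value measures only the spread between chips, which may be in part technical.

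The ganglionic eminences are proliferative swellings of the embryonic ventral forebrain that produce striatal neurons and most cortical interneurons. Homeodomain factors divide this neuroepithelium into domains: Pax6 and Gsx2 oppose each other at the border between pallium and subpallium, and Gsx1 acts with Gsx2 in ventral progenitors. Nkx6-2 marks the dorsal edge of the MGE at the sulcus toward the lateral eminence. Otx1 and Otx2 are orthodenticle-related factors of the anterior brain, with Otx2 required for forebrain formation and active in ventral telencephalic progenitors. Six3 is a sine oculis family factor needed for the most anterior neural plate and is used again in differentiating striatal neurons.

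Total counts ran from 28145271 to 101482176 per chip, with 37 to 84 cells a chip and a median of 1512 to 4656.5 detected genes per cell. Chips 180, 181, 186, 189-2, 190-2 and 195 stood apart with medians below 2000 genes. Chip numbers were also unequal between groups. All E12.5 and CGE chips were numbered 160 or above, whereas 5 of 8 dMGE chips and 4 of 5 vMGE chips at E14.5 were numbered below 160. For E14.5 comparisons of MGE with CGE, chip series and region therefore overlap in large part, and values for the chips numbered 160 and above alone are given for the differences tested there. The dissections carried their defining genes: Nkx2-1, the MGE selector, had chip medians of 239 and 306 CPM (counts scaled to a common library total) in dMGE and vMGE at E12.5 against 23.2 in CGE. Nr2f2, a caudal eminence marker, had medians of 242 CPM in CGE, 88.4 in dMGE and 33.3 in vMGE at E12.5, but at E14.5 the medians were 41.3, 51.6 and 14.7.

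Cells were also grouped by expression with the members left out, which gave 980 progenitor-like and 744 neuron-like cells, and 926 cells in 3 clusters that met no marker rule and stayed unnamed. At E14.5 the same class name covers different clusters in the 2 regions. Of 231 cells in progenitor-like cluster 2, 230 were from E14.5 MGE, and of 235 cells in neuron-like cluster 3, 232 were, whereas CGE and E12.5 MGE cells of these classes lay in clusters 4, 7 and 5. No doublet caller was run, and results were recomputed without the 5% of cells richest in genes. Levels below are CPM of all kept cells of a chip summed, so fewer cells with a gene and less RNA per cell cannot be told apart in them. Shares of cells are given beside them for that reason. The TMM factor differed between chips. On dMGE chips 191 and 192, of 34631663 and 51118077 counts, 1 Otx1 count was 0.161 and 0.0480 CPM. On vMGE chip 93, of 41654636 counts, it was 0.0209 CPM. Pooled levels and levels of single cells are scaled by the total alone, without that factor.

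With length taken into account (CPM per kilobase of annotated exon), Six3 had the highest group median of the 7 genes in CGE at both ages, at 8.01 and 17.4, followed in CGE at E12.5 by Pax6 at 4.21 and Otx1 at 4.02. In dMGE at E12.5 the highest was Gsx1 at 6.03, then Six3 at 5.01 and Otx2 at 2.49. In vMGE at E12.5 these 3 were at 6.25, 4.33 and 4.52. Gsx2 had a median of 0 in all 6 groups. Neighbours in these orders had overlapping chip ranges, except that in CGE at E14.5 the lowest Six3 chip, at 8.18, lay above the highest Pax6 chip, at 4.67. By detection, Six3 had at least 1 count in 808 of the 2650 cells, Pax6 in 626, Otx2 in 227, Otx1 in 140, Gsx1 in 99, Nkx6-2 in 60 and Gsx2 in 10. A few cells held much of the total, since the 10 richest cells carried between 25.4% of all counts for Six3 and 83.2% for Nkx6-2, and 100% for Gsx2.

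**Figure D1:**
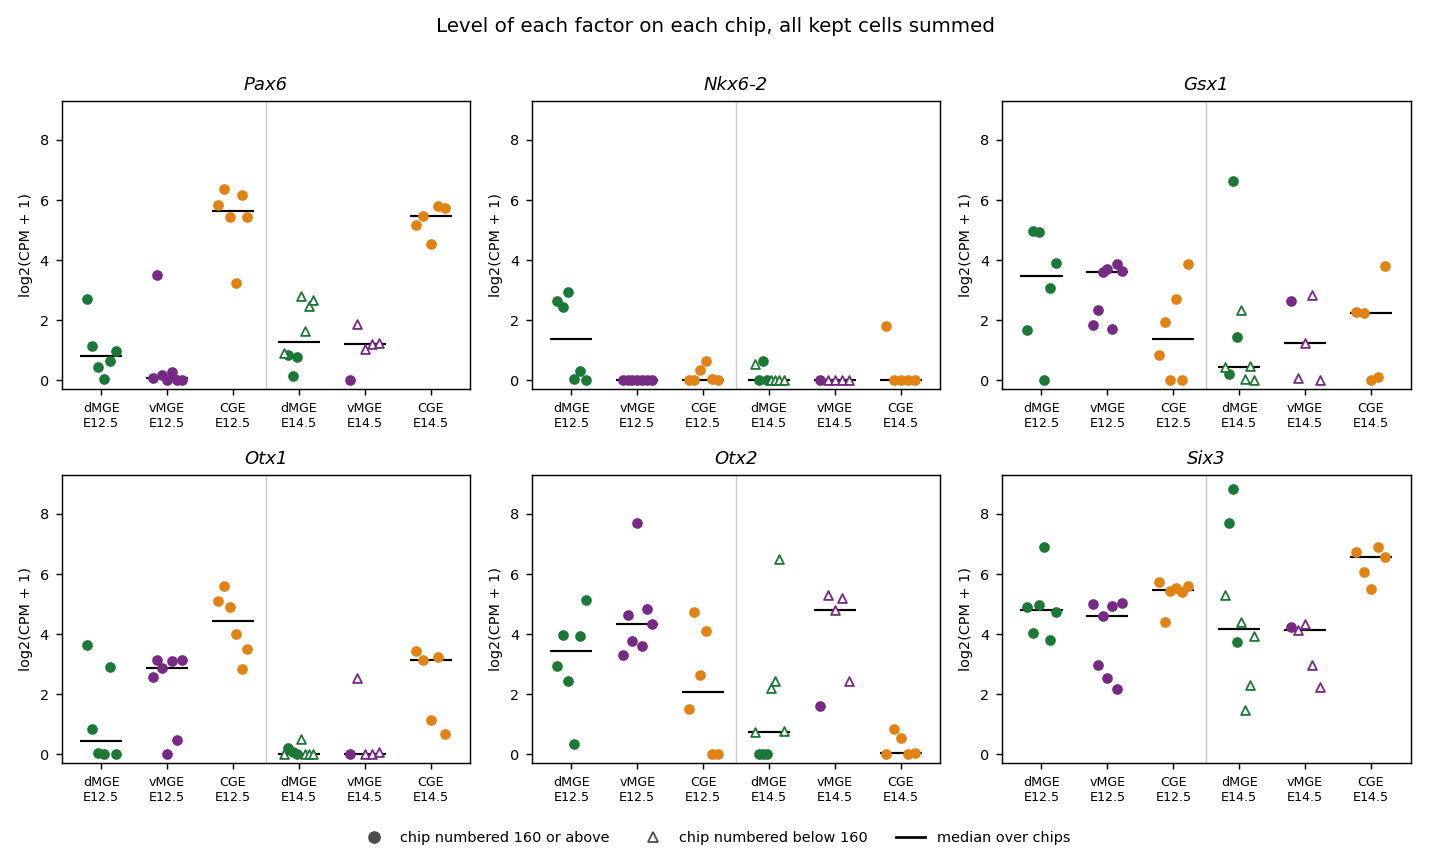
Level of 6 members on each chip as log2(CPM + 1), all kept cells of a chip summed, in dMGE, vMGE and CGE at E12.5 and E14.5. Each point is a chip and the bar is the median over chips. Pax6 and Otx1 sit highest in CGE, Nkx6-2 is at 0 on all 12 vMGE chips, and single chips stand far above their group for Otx2, Gsx1 and Six3.

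Pax6, a paired-box homeodomain factor of pallial and lateral subpallial progenitors, was higher in CGE than in MGE progenitor-like cells at E12.5, the 1 difference between regions in level that passed the edgeR test for a member. On the CGE chips at E12.5 its level was 8.54 CPM at the lowest, 49.2 at the median and 82.5 at the highest. In dMGE at the same age it was 0.0219, 0.771 and 5.48 CPM, and in vMGE 0, 0.0498 and 10.3 CPM. The highest vMGE chip, 174, exceeded the lowest CGE chip, 182, and 93.4% of its Pax6 counts came from 1 cell. All other MGE chips lay below all CGE chips.

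At E14.5 the CGE chips 160, 161, 162, 189-2 and 190-2 had 34.7, 43.4, 22.2, 54.6 and 52.2 CPM. In 189-2 and 190-2, both of low gene number, 1 cell held 88.1% and 70.5% of the counts. The dMGE chips ran from 0.0961 to 5.93 CPM with a median of 1.52, and vMGE chips 91, 93, 96, 98 and 194 had 2.71, 1.07, 1.30, 1.37 and 0 CPM. The groups did not overlap at this age. The 4 MGE chips numbered 160 or above were among the lowest, at 0, 0.0961, 0.736 and 0.806 CPM.

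Tested over all 15918 genes that passed the low-count filter with edgeR's quasi-likelihood test and Benjamini-Hochberg adjustment, Pax6 in MGE against CGE had a log2 fold change of -5.08 ± 1.12 (SE) at E12.5, with an adjusted p of 0.0692, and of -4.50 ± 1.17 at E14.5, with an adjusted p of 0.0952. Neither passed 0.05. The E12.5 call depended on single chips and on the tool: without chip 174 the fold change was -7.29 with an adjusted p of 0.000267, and 15 of 50 other settings called it, with adjusted p from 5.37e-06 to 0.161. All E12.5 chips are numbered 160 or above. At E14.5, with those chips alone, the adjusted p was 0.727, although the 4 MGE chips, from 0 to 0.806 CPM, stayed below the 5 CGE chips, from 22.2 CPM. The fitted fold change is not given there because the 1 vMGE chip is at 0. The p-value was 0.0525 with the chip series as a covariate. Leaving out vMGE chip 180 of E12.5 brought the E14.5 value to 0.0417.

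Over the 9 comparisons of all cells, 0 of the 6 members tested were called, Gsx2 being too low to test. The background was low as well: percent called over all genes was 0.0503 for MGE against CGE at E12.5, 0 for the same contrast at E14.5, 0 for vMGE against dMGE at both ages, 0 for age in CGE, 0.157 for age in dMGE, 0.00628 for age in vMGE, and 0 for both changes with age. At an unadjusted p under 0.05 the members numbered 1, 4, 1, 3, 1, 2, 0, 1 and 0 in these comparisons, and 1004 to 2960 genes passed that level in all. DESeq2, run on the same sums, called 2, 4, 1, 2, 0, 1, 0, 0 and 0 members and 331 to 1514 genes. Nkx6-2 is among these DESeq2 calls for MGE against CGE and for vMGE against dMGE at both ages. Its calls rest on a vMGE level of 0 on all chips. At E12.5 the pooled Nkx6-2 level was 4.02 CPM in dMGE and 0.187 CPM in CGE. The median fold change of all genes was itself 0.22 for MGE against CGE at E14.5, 0.37 for age in dMGE and -0.26 for vMGE against dMGE at E14.5 (log2), and the members' values are to be read against that.

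Within progenitor-like cells the Pax6 difference at E12.5 passed the test. The 5 CGE chips with at least 10 such cells had 29.96 to 94.7 CPM, the 5 dMGE chips 0 to 6.33 CPM and the 6 vMGE chips 0 to 0.158 CPM, with no overlap. The log2 fold change was -7.76 ± 1.28 with an adjusted p of 0.00595 (edgeR, 14214 genes), and Pax6 was 1 of the 6 members called, where percent called over all genes was 0.0211. The call held in 47 of 47 other settings, 31 of which each left out a chip, with adjusted p from 1.11e-13 to 0.0383.

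In E14.5 progenitor-like cells Pax6 was at 23.6, 76.8, 33.8 and 3.15 CPM on CGE chips 160, 161, 162 and 190-2, against 0.574 to 5.46 in dMGE and 0 to 3.10 in vMGE. Chip 190-2, with 11 such cells, overlapped the MGE range. Of 6 members 0 were called by edgeR (percent called 0.556), against 4 at an unadjusted p under 0.05. DESeq2 called 4 members and 1371 genes in all, and its 4 include Nkx6-2, at 0 on all vMGE chips. The Pax6 fold change of -4.61 ± 1.17 had an edgeR adjusted p of 0.0585. It passed in 12 of 47 other settings, and with chips numbered 160 and above alone its adjusted p was 0.725. In neuron-like cells the CGE chips had 2.24 to 113 CPM at E12.5, where no MGE chip was above 2.72. At E14.5 the CGE chips had 16.7 to 37.04 CPM and no MGE chip was above 9.78. The fold changes of MGE against CGE, -6.23 ± 1.84 and -3.42 ± 1.47, had adjusted p of 0.507 and 0.352, where percent called was 0 and 0.0808 and 0 of 5 members were called. With chips numbered 160 and above alone the E14.5 adjusted p was 0.392, with both MGE chips at 0. At an unadjusted p under 0.05, 1 and 2 members passed in neuron-like cells, and DESeq2 called 1 at each age, beside 410 and 857 genes in all. Between vMGE and dMGE no member was called by edgeR in either class at either age, with a percent called of 0 and 0 in progenitor-like and 0.00735 and 0 in neuron-like cells. At an unadjusted p under 0.05 the members numbered 2, 2, 0 and 1, and by DESeq2 2, 1, 0 and 1. Over all genes DESeq2 called 152, 362, 500 and 506. Its calls in progenitor-like cells are Nkx6-2 at both ages, with vMGE at 0 on all chips, and Pax6 at E12.5. For Pax6 the log2 fold change was -4.84 with a DESeq2 adjusted p of 0.00290, where edgeR gave -4.86 with an adjusted p of 0.824. The DESeq2 call in neuron-like cells is Otx1, with dMGE at 0 on all chips.

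**Figure D2:**
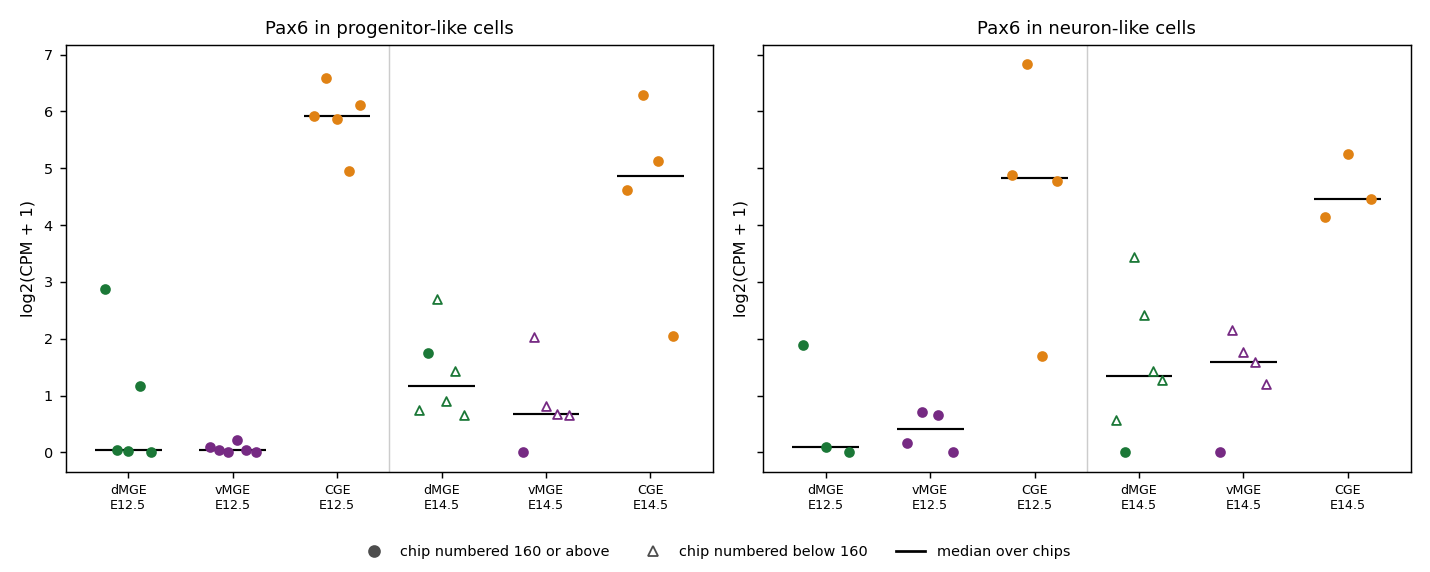
Pax6 as log2(CPM + 1) on each chip with at least 10 cells of the class, progenitor-like at left and neuron-like at right, by group. At E12.5 the 5 CGE chips lie above all MGE chips in progenitor-like cells; at E14.5 CGE chip 190-2 falls among the MGE chips.

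The share of cells with Pax6 gave the same picture at E12.5. On the CGE chips 16.7% of cells at the lowest, 31.2% at the median and 60.8% at the highest had at least 1 count, against medians of 3.36% in dMGE and 1.45% in vMGE. The highest MGE chip, 170, was at 9.09%, below all CGE chips. With each cell thinned to 50000 counts the medians were 17.9%, 1.36% and 0%. The difference on the arcsine square-root scale was -27.1 ± 5.61 degrees (limma across 15141 genes, adjusted p 0.0121, percent called 0.119), and Pax6 was the 1 member called of 6. The call was lost without CGE chip 172 (-24.05 degrees, adjusted p 0.142) or 179 (-24.8 degrees, 0.126) and held in the other 35 fits that left out a chip.

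At E14.5 the share depended on how many counts were asked for. With at least 1 count, Pax6 was found in 38.8% of dMGE cells (195 of 502, exact 95% binomial interval 34.6 to 43.3), 37.8% of vMGE cells (139 of 368, 32.8 to 42.9) and 26.9% of CGE cells (104 of 387, 22.5 to 31.6), intervals that cover counting error only. With at least 5 counts the chip medians were 2.67% in dMGE, 1.59% in vMGE and 24% in CGE. The arcsine difference between MGE and CGE went from 4.53 ± 6.02 degrees (adjusted p 0.773) to -15.02 degrees (adjusted p 0.0239) when 5 counts were required, and was -7.25 degrees after thinning, adjusted p 0.400. For chips numbered 160 and above alone it was -23.8 degrees with an adjusted p of 0.27. At 1 count 0 of 6 members were called in this comparison and 3 passed an unadjusted p under 0.05, beside a percent called of 0.793.

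The low counts were on the 9 E14.5 MGE chips numbered below 160. There 325 of 623 cells (52.2%) had Pax6, but 296 of these had 1 to 4 counts and 29 (4.65% of cells) had 5 or more. On the 4 E14.5 MGE chips numbered 160 or above, 9 of 247 cells (3.64%) had any count. The low counts were spread over all classes on the earlier chips, in 42.1% of progenitor-like, 50% of neuron-like and 52.3% of unnamed cells, against 2%, 0% and 4.48% on the later ones. Median counts per cell on the earlier and later chips were 571446 and 592661 in progenitor-like, 505480 and 502518 in neuron-like, and 414923 and 603042 in unnamed cells. On the same 9 chips, 1 to 4 counts of the other members were found in 27 cells for Six3, 13 for Otx2, 6 for Gsx1, 3 for Otx1, 2 for Nkx6-2 and 0 for Gsx2. The antisense gene Pax6os1 had a count in 1 of those 623 cells. What sets the low counts was not tested.

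The share of cells with Pax6 rose from E12.5 to E14.5 in dMGE (24.5 ± 6.13 degrees, limma adjusted p 0.0359, percent called 1.22) and in vMGE (28.6 ± 6.64 degrees, adjusted p 0.0476, percent called 0.132). Neither passed at 5 counts (adjusted p 0.749 and 0.963), after thinning (0.308 and 0.338) or with chips numbered 160 and above alone (0.802 and 0.930). The change with age of MGE against CGE was not called for any of the 6 members tested by limma on shares (percent called 0; 1 member at an unadjusted p under 0.05).

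Most Pax6 cells of CGE also had subpallial genes. Of 188 CGE cells with at least 5 Pax6 counts, 82.4% had Dlx2, a subpallial homeobox gene, against 64.9% of the other 666 cells, 79.8% had the GABA-synthesis gene Gad2 against 69.5%, and 74.5% had Nr2f2 against 56.0%. The radial glial gene Fabp7 was in 66.5% against 43.2%. Pallial markers were rare: Neurod6 in 2 of the 188, Emx1 in 1, Tbr1 in 3, Neurog2 in 0 and Eomes in 6 (3.19% against 0.150%). Cells of 1 chip share their library, so these shares are descriptions. Summed over chips, the 9 pallial excitatory markers had a median of 3.62 CPM and a highest value of 216 CPM in CGE at E12.5, on chip 175, which also had the highest Pax6 level, with each of the 9 present on at least 1 chip, and 0.573 and 51.8 in CGE at E14.5, where Slc17a7 and Eomes were at 0. The MGE medians were 0.0584 to 0.326 CPM and the highest MGE chip, 97, had 137 CPM. Their part in the Pax6 difference was not tested.

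By class, at least 5 counts of Pax6 were found in 90 of 230 progenitor-like CGE cells (39.1%), 54 of 290 neuron-like (18.6%) and 44 of 334 unnamed cells (13.2%), with median detected genes of 4079, 3770 and 1973. In MGE the same shares were 2.93%, 3.30% and 1.52%. Among cells past 5 counts the level in CGE at E12.5 ran from 3.15 to 3525 CPM with a median of 66.2, and at E14.5 the median was 81.4. In E14.5 MGE the medians of such cells were 15.8 and 19.2 CPM.

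Gsx1 and Gsx2, the genomic screened homeobox factors that keep ventral progenitors subpallial, were found in few cells. Gsx1 was at 0, 10.7 and 30.1 CPM (lowest, median and highest chip) in dMGE at E12.5, at 2.28, 11.1 and 13.7 in vMGE and at 0, 1.81 and 13.5 in CGE. At E14.5 CGE chips 160, 161, 162, 189-2 and 190-2 had 3.86, 3.77, 0, 0.0799 and 13.0 CPM, vMGE chips 91, 93, 96, 98 and 194 had 0.0682, 1.38, 6.17, 0 and 5.25, and dMGE ran from 0 through a median of 0.367 to 97.6 CPM. All these ranges overlap. The top dMGE chip, 192, took 99.9% of its Gsx1 counts from 1 cell.

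Gsx1 was not called in any comparison by edgeR, by limma on shares or by DESeq2. At least 1 count was found in 5.18% of dMGE, 5.39% of vMGE and 2.78% of CGE cells at E12.5 and in 2.59%, 2.45% and 3.88% at E14.5. The exact 95% intervals overlap among all 6 groups, which does not show that the groups are equal. Like all such intervals given here, they count cells as independent and take no account of the spread between chips. At least 5 counts were found in 4.80% of MGE progenitor-like cells against 1.54% of neuron-like, and in CGE in 4.78% against 2.41%. The classes also differ in median detected genes, 3807.5 against 2911.5 in MGE and 4079 against 3770 in CGE. The 71 cells with at least 5 counts had a median of 114 CPM and up to 1515 CPM. This minimum in part sets that level, since the cells with fewer counts, of 99 with any, are left out. In MGE 12 of the 50 Gsx1 cells (24%) also had Otx2, and these were 9.302% of the 129 Otx2 cells, while 1 had Pax6.

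Gsx2 could not be followed. The table holds 2 rows with this symbol, of which 1 had no counts in any cell and the other had 58 counts in 10 cells, with 5 or more in 4. It failed the filters for every test. In vMGE at E12.5, 2 of 482 cells had a count (exact 95% interval 0.0503% to 1.49%), and in vMGE at E14.5 0 of 368 did, where the exact interval ends at 0.997%. With 2 rows of one name the counting may have split or dropped reads, so the low level of Gsx2 is uncertain.

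Nkx6-2, the homeobox gene of the dorsal MGE, was found in dMGE and not in vMGE. The dMGE chips 170, 173, 176, 181, 184 and 195 at E12.5 had 5.19, 4.47, 6.75, 0.0438, 0.243 and 0 CPM. All 7 vMGE chips at E12.5 and all 5 at E14.5 were at 0. At E12.5 only chip 195 of dMGE, 1 of the chips of low gene number, overlapped vMGE. At E14.5 dMGE chips 101 and 192 had 0.462 and 0.576 CPM and the other 6 were at 0.

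Counted as cells, Nkx6-2 was in 45 of 444 dMGE cells at E12.5 (10.1%, exact 95% interval 7.49 to 13.3) and in 0 of 482 vMGE cells, for which 3 cells of the total set a limit of 0.622% and the exact interval ends at 0.762%. At E14.5 it was in 6 of 502 dMGE cells (1.195%) and 0 of 368 vMGE cells, with limits of 0.815% and 0.997% by the same rules. CGE had 5 of 467 and 4 of 387 cells, 1.07% and 1.03%. The pooled dMGE level was 4.02 CPM at E12.5 and 0.128 CPM at E14.5. These values are 637 and 9.03 times a floor of 3 counts over the whole vMGE group. The ratios are not bounds on the difference, because amplified reads come in groups from few cells. The 18 dMGE cells with at least 5 counts at E12.5 had a median of 61.5 CPM. Neither the ratios nor the intervals take account of the spread between dMGE chips. No fitted fold change is given, since it would rest on the prior count.

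The share of cells was lower in vMGE than in dMGE at E12.5 by 15.8 ± 3.09 arcsine degrees in the limma fit (adjusted p 0.0238, percent called 0.0132), and Nkx6-2 was 1 of the 2 genes called among all 15141. Depth and single chips bear on this call. With cells thinned to 50000 counts the dMGE median was 3.39% in place of 7.43%, vMGE was at 0% and the adjusted p was 0.843. On the chips with a median of at least 2000 genes it was 0.000165. That subset was chosen after seeing the data and leaves out dMGE chips 181 and 195, which had the lowest dMGE shares. The call held in 27 of 37 fits that left out a chip and was lost without chips 170, 171, 173, 174, 176, 177, 180, 183, 185 or 196, with adjusted p up to 0.474 without chip 176, while the difference stayed between -13.2 and -15.8 degrees. With chips numbered 160 and above alone it was -15.8 degrees with an adjusted p of 0.165. The percent called was 0 for this contrast at E14.5, where 0 members were called and 1 passed an unadjusted p under 0.05. At chip level the share in dMGE was 22.1% and 22.9% on chips 170 and 176, 9.86% on 173, 5.00% on 184, 1.47% on 181 and 0% on 195.

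With age the share of dMGE cells with Nkx6-2 fell by 12.5004 ± 2.997 degrees (limma adjusted p 0.0291, percent called 1.22), where the median over all genes was -3.52 degrees and 170 of the 185 genes called were lower. The share went from a chip median of 7.43% to 0%. Thinned to 50000 counts the medians were 3.39% and 0% and the adjusted p 0.237. The call held in 28 of 37 fits that left out a chip, and the adjusted p was up to 0.148, without chip 176. With chips numbered 160 and above alone it was 0.547. Over the same 2 ages the median of detected genes per cell by chip also differed, from 1619 to 4458 in dMGE at E12.5 against 2040 to 3107 at E14.5.

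Most Nkx6-2 cells had Nkx2-1 and proliferation genes, and most had neuronal genes as well. Of the 20 MGE cells with at least 5 counts, 19 had Nkx2-1, 20 had the mitotic gene Top2a, 16 had Fabp7 and 15 had Nr2f2, against 62.6%, 66.8%, 36.99% and 25.5% of the other 1776 MGE cells. The neuronal gene Tubb3 was in 19 and Gad2 in 15, against 77.4% and 58.8%. Of the MGE genes Lhx6 and Lhx8, 14 had the first and 6 the second, against 59.7% and 28.8%. None had Otx1 or Gsx1, 4 had Otx2, 7 had Six3 and 2 had Pax6. These cells had a median of 4432.5 detected genes against 2918.5 in the others, and the shares move with that. Of the 20, 18 were dMGE cells at E12.5 and 2 dMGE cells at E14.5, while the others pool dMGE and vMGE of both ages. The contrasts therefore also hold region and age. Nr2f2 alone had chip medians of 88.4 and 33.3 CPM in dMGE and vMGE at E12.5 and of 51.6 and 14.7 at E14.5. In dMGE at E12.5, 15 of 198 progenitor-like cells and 1 of 89 neuron-like cells had at least 5 counts.

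**Figure D3:**
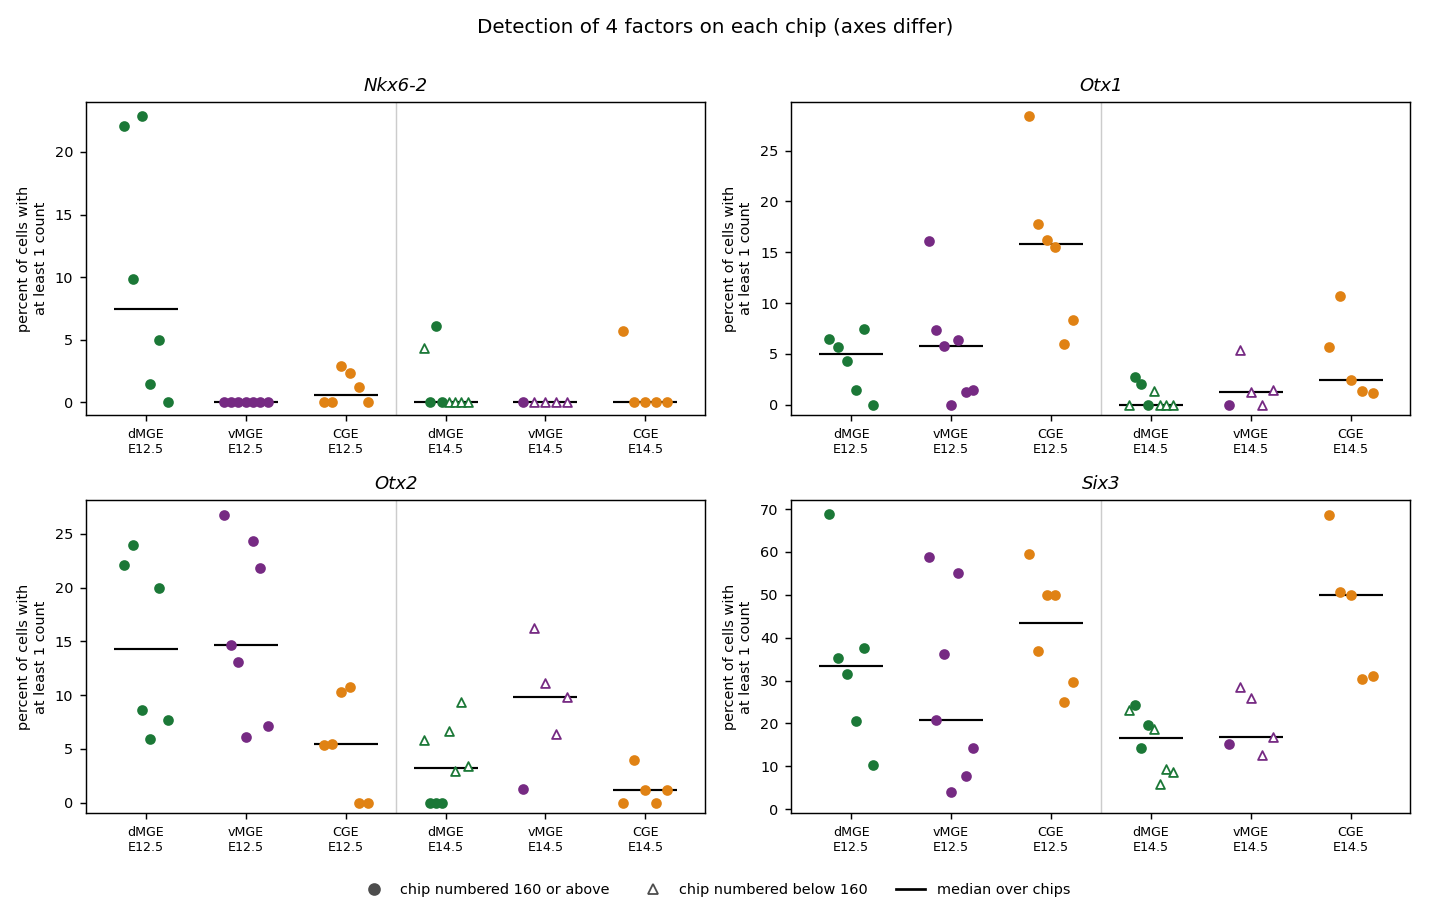
Percent of cells of each chip with at least 1 count of Nkx6-2, Otx1, Otx2 and Six3, by group, each panel with its own axis. Nkx6-2 reaches 22.9% in E12.5 dMGE and is at 0% on all vMGE chips, Otx1 is highest in E12.5 CGE, Otx2 in E12.5 MGE, and Six3 spans 4.08% to 68.8% at E12.5 in MGE alone.

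Otx1 had its highest chip median in CGE at E12.5 and was at 0 on 5 of 8 dMGE chips at E14.5. At E12.5 its lowest, median and highest chip were at 6.15, 21.8 and 47.9 CPM in CGE. In dMGE the 6 chips ran from 0 to 11.4 CPM, and in vMGE the 7 chips from 0 to 7.92 CPM with a median of 6.39. At E14.5 the CGE chips 160, 161, 162, 189-2 and 190-2 had 9.91, 7.82, 1.22, 8.46 and 0.603 CPM, dMGE at most 0.419, and vMGE 4.78 on chip 91 with at most 0.0604 on the other 4. CGE and MGE overlapped at both ages, through chips 186 and 187 at E12.5 and through 91 at E14.5.

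The fold change of MGE against CGE was -2.57 ± 1.31 at E12.5 (log2, edgeR adjusted p 0.730) and -4.37 ± 1.45 at E14.5 (adjusted p 0.157). For age in dMGE it was -5.38 ± 1.74 with an adjusted p of 0.0951. In progenitor-like cells the values for MGE against CGE were -2.81 ± 1.38 (adjusted p 0.764) and -5.79 ± 1.54 (adjusted p 0.0687) at the 2 ages. None of these passed, so the lower levels just given are descriptions. The last one passed when dMGE chip 90 or vMGE chip 91 was left out, with adjusted p of 0.0340 and 0.0355. With chips numbered 160 and above alone the E14.5 adjusted p was 0.727 in all cells, where the 4 MGE chips were at 0 to 0.161 CPM, and 0.697 in progenitor-like cells, where both were at 0.

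In cells, Otx1 was found in 14.99% of CGE cells at E12.5 (70 of 467, exact 95% interval 11.9 to 18.6), 4.28% in dMGE and 5.39% in vMGE. The limma difference of -11.4 ± 2.89 degrees had an adjusted p of 0.128 and passed, at 0.0373, when 5 counts were required. It also passed without chip 171 (0.0421) or 186 (0.0487). Of the CGE cells, 17.8% of progenitor-like and 3.45% of neuron-like cells had at least 5 counts, and in MGE 3.87% and 0.881%. The classes differ in detected genes, as given for Gsx1.

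Otx2 had its highest chip medians in vMGE at both ages. At E12.5 its lowest, median and highest chip were 8.83, 19.1 and 206 CPM in vMGE, 0.263, 10.5 and 34.0 in dMGE and 0, 3.55 and 25.5 in CGE. The top vMGE chip, 180, is a chip of low gene number and took 99.9% of its counts from 1 cell. At E14.5 vMGE chips 91, 93, 96, 98 and 194 had 38.8, 27.0, 35.8, 4.43 and 2.04 CPM. CGE was at 0, 0.810, 0.471, 0 and 0.0294 CPM, below every vMGE chip. In dMGE the median was 0.690 CPM and the highest chip, 97, had 89.0, with 97.9% from 1 cell.

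The E14.5 level differed between the chip series. In vMGE the 4 chips below 160 had a median of 31.4 CPM and the 1 chip above it 2.04. In dMGE the 5 chips below 160 ran from 0.678 to 89.0 CPM and the 3 above were at 0. Over all chips the fold change of MGE against CGE was 1.52 ± 1.47 at E12.5 (edgeR adjusted p 1) and 5.95 ± 2.09 at E14.5 (adjusted p 0.176). With chips numbered 160 and above alone the E14.5 value turned to -2.18 (adjusted p 0.817). Within the chips below 160 there is no CGE to compare.

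The share of cells with Otx2 was 14.9% in dMGE, 16.6% in vMGE and 5.14% in CGE at E12.5, and 3.78%, 8.97% and 1.29% at E14.5. The E12.5 difference between MGE and CGE, 11.7 ± 3.31 degrees, had an adjusted p of 0.307 (limma). In dMGE the share fell with age by 13.4 ± 3.61 degrees (adjusted p 0.0466, percent called 1.22), from a chip median of 14.3% to 3.19%. It held in 15 of 37 fits that left out a chip, with adjusted p of 0.158 without chip 170. Thinning (0.308), a minimum of 5 counts (0.207) and chips numbered 160 and above alone (-21.8 degrees, 0.0799) also ended it. Otx2, Nkx6-2 and Pax6 were the 3 of 6 members called for age in dMGE. The all-cells fold change of Otx2 for the same contrast was not called.

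Otx2 was most frequent in progenitor-like cells of both regions. At least 5 counts were found in 13.5% of MGE progenitor-like, 2.86% of neuron-like and 2.53% of unnamed cells, and in CGE in 7.39%, 1.38% and 0.599%. Median detected genes of these classes were 3807.5, 2911.5 and 1962.5 in MGE and 4079, 3770 and 1973 in CGE, and the shares move with depth. Of the 129 MGE cells, 46.5% had the Notch target Hes5 against 13.1% of the other 1667, 72.1% had Fabp7 against 34.8% and 47.3% had Gad2 against 59.9%. Nkx2-1 was in 75.2% against 62.0%. Markers of choroid plexus and cortical hem, where Otx2 is also active, reached 89.3 CPM in sum on 1 vMGE chip at E14.5 but had a median of 0.0806 there and at most 0.700 in vMGE at E12.5, and Ttr was in 2 of the 129 cells. The 10 diencephalic and hypothalamic markers reached 897 CPM on chip 180, the top Otx2 chip of vMGE at E12.5, with a median of 19.3. Their part in the Otx2 levels was not tested.

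**Figure D4:**
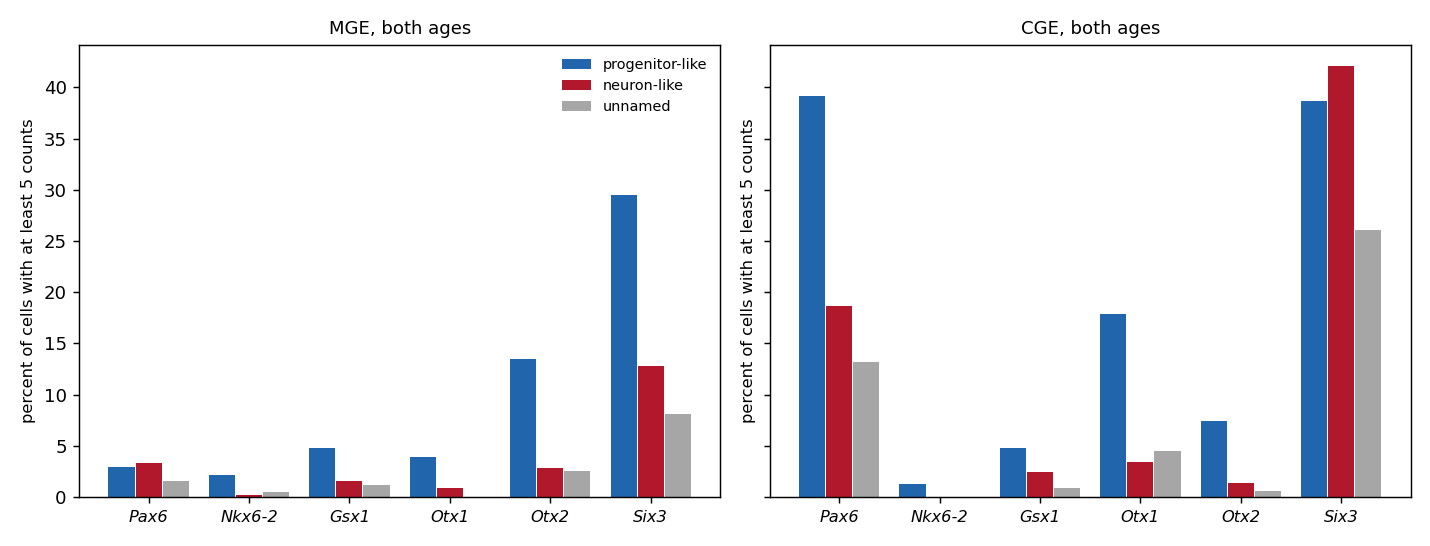
Percent of cells with at least 5 counts of each member by class, in MGE (left) and CGE (right), both ages pooled over cells. Pax6 and Otx1 are most frequent in progenitor-like CGE cells (39.1% and 17.8%), Otx2 in progenitor-like MGE cells (13.5%), and Six3 is found in 42.1% of neuron-like CGE cells.

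Six3 was the most widely detected member and was found in both classes. At E12.5 the lowest, median and highest chip were 20.4, 43.6 and 51.7 CPM in CGE, 12.8, 27.3 and 117 in dMGE and 3.51, 23.6 and 32.0 in vMGE. At E14.5 CGE chips 160, 161, 162, 189-2 and 190-2 had 104, 65.4, 44.6, 119 and 94.5 CPM, and vMGE chips 91, 93, 96, 98 and 194 had 16.7, 19.4, 6.92, 3.75 and 17.7. The 2 groups did not overlap. In dMGE the E14.5 median was 17.2 CPM, with 207 and 453 on chips 191 and 192, where 68.1% and 99.9% of the counts came from 1 cell, and at most 38.5 on the other 6. The levels on chips 191 and 192 were raised by their TMM factors, as described above. Reads of Six3 and of its antisense neighbour Six3os1 cannot be told apart unless counting used strand, which is not given in the sources used here. Six3os1 had a count in 13.7% of CGE cells, where Six3 had one in 43.2%.

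The fold change of MGE against CGE at E14.5 was -1.30 ± 0.76 (log2, edgeR adjusted p 0.435), -0.56 with chips numbered 160 and above alone and 0.57 with the chip series as a covariate, so its direction was not stable. For vMGE against dMGE at E14.5 it was -2.86 ± 0.97 (adjusted p 0.182). Weighted by cells instead, Six3 was in 45.5% of CGE cells at E14.5 (176 of 387, exact 95% interval 40.4 to 50.6) against 15.3% in dMGE and 20.1% in vMGE. The chip ranges for these were 30.3% to 68.6%, 5.88% to 24.3% and 12.7% to 28.4%, with no overlap between CGE and MGE. The limma difference was -18.3 ± 5.31 degrees with an adjusted p of 0.0758, and it passed without chip 180 (0.0499), 189-2 (0.0490) or 190-2 (0.0423). On the chips with a median of at least 2000 genes it was -24.3 degrees with an adjusted p of 0.000781. That subset was chosen after seeing the data and leaves out CGE chips 189-2 and 190-2. With chips numbered 160 and above alone the difference was -18.2 degrees and the adjusted p 0.897.

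Pooled over both ages, at least 5 counts of Six3 were found in 42.1% of neuron-like and 38.7% of progenitor-like CGE cells, against 12.8% and 29.5% in MGE. Median detected genes were 3770 and 4079 against 2911.5 and 3807.5. At E12.5 alone the shares in dMGE, vMGE and CGE were 22.5%, 22.9% and 31.6% of neuron-like cells. In progenitor-like cells they were 38.9%, 29.8% and 36.7%. At E14.5 they were 8.72%, 5.69% and 51.0% of neuron-like and 19.6%, 25.7% and 42.5% of progenitor-like cells. These shares were not tested. In neuron-like cells at E14.5 the CGE chips 160, 161 and 162 had 105, 105 and 48.6 CPM, and the MGE chips 0 to 29.1 CPM, with no overlap. The fold change was -3.02 ± 1.24 with an adjusted p of 0.32, and -2.03 with chips numbered 160 and above alone, adjusted p 0.591. These classes rest on different clusters in the 2 regions, as given above.

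Co-detection at 5 counts is given beside the share of all cells with the second gene. In CGE 87 cells had Pax6 and Six3, 46.3% of the 188 Pax6 cells, where 34.9% of all CGE cells had Six3, and 29.2% of the 298 Six3 cells, where 22.0% had Pax6. Otx1 and Pax6 met in 31 cells. These were 47.0% of the 66 Otx1 cells, where 22.0% of all CGE cells had Pax6, and 16.5% of the Pax6 cells, where 7.73% had Otx1. In MGE 3 cells had both. Six3 and Otx2 met in 51 MGE cells, 39.5% of the 129 Otx2 cells, against 18.2% of all MGE cells with Six3. Cells with a member had more detected genes, with medians of 3816 against 3090 for Pax6 in CGE and 4170 against 2839 for Otx2 in MGE, and such shares move with depth.

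Across the 37 chips, which share region, age and depth effects, log2(CPM + 1) of Pax6 and Otx1 correlated at r = 0.60 and that of Otx2 and Six3 at r = -0.65, as descriptions. Of 10128 genes with a mean of at least 5 CPM, those most like Pax6 were Nkx2-3 (r = 0.73), Negr1 (0.69) and Ndst3 (0.69). For Otx1 they were Wnt7b (0.76), Plpp7 (0.76) and Pla2g12a (0.70). For Six3 they were Ddx54 (0.76), Tmem248 (0.73) and Rrs1 (0.70), and for Otx2 Ska1 (0.68), Usp31 (0.63) and Fn1 (0.62). Gsx1 was most like Slc30a9 (0.66), Mtf1 (0.64) and Zfp423 (0.62). Nkx6-2, present on 11 chips, reached 0.44 with Dlx2, Sgk3 and Polm, and Gsx2, present on 7, reached at most 0.44, with Tcaim, Trpc4 and Rhbdd3.

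Other patterning genes were read from lists of known factors. In MGE against CGE at E12.5, 2 of 9 tested ventral and MGE fate genes were higher: Nkx2-1, with a log2 fold change of 4.02 ± 0.78, and Lhx8, a LIM factor of ventral cholinergic lineages, with 7.53 ± 1.47 (edgeR adjusted p 0.0218 for both). The 9 had a median of 2.36 against 0.05 for all genes. Among 12 LGE and CGE genes, Zfp503, a striatal zinc finger gene, was lower at -6.65 ± 1.28 (adjusted p 0.0218) and the list's median was -1.23. In progenitor-like cells Lhx8 and Nkx2-1 were higher at E12.5 and Lhx8 at E14.5. No other gene of the 7 lists was called in any of these comparisons with edgeR, including 9 subpallium-wide, 5 pallial and border, 14 forkhead, 8 anterior and midline genes and 2 further members of the same families that were tested. The forkhead list had a median of -0.06 at the earlier age and 0.39 at the later.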

How the data were processed

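Single cells of dissected ganglionic eminences were sequenced with Smart-seq v4 on Fluidigm C1 chips. The values used are raw read counts per gene and cell in the deposited table, which the authors made with tools that include STAR 2.4.0 and HTSeq 0.6.1 on mm9, per the submitters' processing notes. Whether counting used strand is not given in the sources used here, and the reads carry no molecular identifiers. Gene symbols were taken from GENCODE vM21 for 32620 of 37310 genes. That annotation is on another build, so no coordinates are given, and exon lengths come from it.

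The members and the gene lists were chosen with earlier results of these data known. Cells with at least 1000 genes and 50000 counts were kept, which removed 19 cells. Counts were summed per chip and tested with edgeR 4.0.16 (quasi-likelihood, TMM, R 4.3.3) on all 6 groups together, with Benjamini-Hochberg adjustment over all genes tested and a threshold of 0.05. Shares of cells were tested with limma 3.58.1 on the arcsine square root of the share, in degrees. Classes came from 2000 variable genes without the members, 30 components, 15 neighbours and Leiden clustering at resolution 1 (scanpy 1.11.5), and chips with at least 10 cells of a class were used. Alternatives were DESeq2 1.42.0, limma on log2(CPM + 1), no low-count filter, a stricter cell filter, thinning to 50000 counts, other Leiden resolutions, chip subsets and covariates, and leaving out each chip. On simulated counts for MGE against CGE at E12.5 over 15918 genes, edgeR recovered 46 of 100 genes changed 8-fold and 83 of 100 changed 64-fold, with 2 false calls. The genes changed there had a mean of at least 5 CPM, and the pooled Nkx6-2 level was below that in all 6 groups. The edgeR recovery therefore does not measure the power for such members. For shares in MGE against CGE at E12.5 over 15141 genes, limma recovered 196 of 200 genes changed 4-fold, with 3 false calls. The spread between chips of the simulated shares was set in advance and not estimated from the data. Genes changed there were drawn from a range of detection above that of Nkx6-2. The recovery of shares therefore does not measure the power for the members. Named beside the members are the 3 genes most correlated with each and the called genes of the lists, at most 3 per list and comparison.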

Additional observations from a re-analysis of the deposited data

Results flagged for a closer look

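Of 78 sets of 4 to 10 chips, 22 held a chip whose gap to its neighbour was large against the range of its group, 16 in CPM and 6 in shares of cells. Chance marks about 1 in 20 sets, and many sets here are mostly zeros.

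Single cells gave nearly all counts of several chips that stood apart. The CPM here include the TMM factor of the chip, which raised the levels on chip 192. Otx2 was at 206.2 CPM on vMGE chip 180 at E12.5 (next 27.61, 99.94% from 1 cell) and at 89.01 on dMGE chip 97 at E14.5 (next 4.456, 97.87%). On dMGE chip 192 at E14.5, Gsx1 was at 97.59 CPM (next 4.126, 99.9%) and Six3 at 453.3 (next 206.6, 99.93%). Six3 was at 117.1 CPM on dMGE chip 181 at E12.5 (next 30.18, 51.43% from 1 cell), and was lowest at 20.42 on CGE chip 175 at E12.5 (next 41.21).

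Pax6 was at 5.478 CPM on dMGE chip 170 (next 1.189) and at 10.35 on vMGE chip 174 (next 0.2112, 93.38% from 1 cell), both at E12.5. Chip 174 also stood apart by share, at 7.317% of cells against 2.564%. Otx1 was at 0.419 CPM on dMGE chip 90 (next 0.1611, all counts from 1 cell), and on vMGE chip 91 at 4.776 CPM (next 0.06042) and 5.405% of cells (next 1.408%), all at E14.5. Nkx6-2 was found on 1 CGE chip at E14.5, chip 160, at 2.518 CPM and 5.714% of cells.

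Gsx2 was at 0 on most chips, so a few counts set a chip apart. At E12.5 it was at 0.1108 CPM and 2.817% of cells on dMGE chip 173, at 0.02991 CPM on vMGE chip 171 and at 0.3217 CPM on CGE chip 187. At E14.5 it was at 0.02164 CPM and 1.22% on dMGE chip 193 and at 0.07352 CPM and 1.19% on CGE chip 190-2.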

How the results depend on the processing

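Counts of members called depended on the tool. In all cells DESeq2 called 2 and 4 members for MGE against CGE at E12.5 and E14.5, 1 and 2 for vMGE against dMGE and 1 for age in dMGE, where edgeR called 0. Over all genes DESeq2 called 377, 1116, 331, 831 and 1514 of 15918 in these comparisons. In progenitor-like cells DESeq2 called 4 for MGE against CGE at E14.5 and 2 and 1 for vMGE against dMGE. There 1371, 152 and 362 of 14214 genes were called. In neuron-like cells it called 1 at each age and 1 for vMGE against dMGE at E14.5, beside 410, 857 and 506 of 13614 genes. The DESeq2 calls of Nkx6-2, and of Otx1 in neuron-like cells, involve a group at 0 on all its chips. Limma on log2(CPM + 1) called 1 member at each age in all cells and 1 at E14.5 in each of the 2 classes. The genes it called there numbered 15, 191, 99 and 217. On mean per-cell CPM limma called 1, 2, 1 and 1 members. For MGE against CGE at E12.5 in all cells, 1 member was called with no low-count filter, without the richest 5% of cells, after thinning and with chip series as a covariate. In progenitor-like cells at E14.5, 1 was called with the stricter cell filter, at Leiden resolution 2 and on chips with a median of at least 2000 genes, and 2 after thinning. In neuron-like cells at E14.5, 1 was called with at least 5 cells per chip. Leaving out single chips gave 0 to 1 in these comparisons. Apart from DESeq2 and limma on log2(CPM + 1), the share over all genes is not given for these settings. Those counts are therefore not results about the members.

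For shares, a minimum of 5 counts gave 2 and 1 members for MGE against CGE at E12.5 and E14.5. It gave 0 for vMGE against dMGE at E12.5 and for age in dMGE and vMGE, as did thinning (0, 0 and 0) and chips numbered 160 and above (0, 0 and 0). The subset of chips with a median of at least 2000 genes, chosen after seeing the data, gave 2 for MGE against CGE at E14.5, 5 for age in dMGE and 1 for the change with age. Leaving out single chips gave 0 to 2 for MGE against CGE at E12.5, 0 to 1 at E14.5, 0 to 1 for vMGE against dMGE at E12.5, 0 to 3 for age in dMGE and 0 to 1 for age in vMGE. The share over all genes is not given for these settings of the share test, so the counts are not results about the members.

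Directions turned for Otx2 in level at E14.5 (-2.18 on chips numbered 160 and above), for Six3 (0.57 with the covariate), for the Pax6 share of MGE against CGE at E14.5 (-15.0 at 5 counts, -7.25 thinned, -23.8 on chips numbered 160 and above, -2.53 on chips with at least 2000 genes) and for the Pax6 share with age in vMGE (-6.57 on chips numbered 160 and above). The causes were not tested. Pax6 shares with age in dMGE lost their call without chips 90, 92, 97, 99, 101, 170, 173, 176 or 184, and in vMGE the call held in 13 of 37 such fits. No paired analysis was run, because the groups share no chip numbers and no label says that chips of adjacent number belong together. Genes found in few cells limit what the depth of these chips can show.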
